A study of Homo sapiens with 8 samples.

Results

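The 10 genes described here encode heat shock proteins of the cytosol and the mitochondria or, for BAG3, a partner of such proteins. They were picked by symbol (HSPA1A, HSPA1B, HSPA8, HSPA9, HSPH1, DNAJB1, HSP90AA1, BAG3, HSPD1 and HSPE1) from the 27776 genes listed in either of the deposited tables. RNA-seq was done on 769-P and CAKI-1, established human clear cell renal cell carcinoma (RCC) lines. Each line was cultured for 16 hours with branched-chain amino acids (BCAA; isoleucine and leucine at 0.38 mM each, valine at 0.17 mM) or without them, with 2 libraries per condition and 8 in all. The legend of the study's RNA-seq figure gives an n larger than 2. The study made its BCAA-depleted medium from RPMI 1640 powder lacking all amino acids, with dialyzed serum, and whether other amino acids were added back is not given in the sources used here. For routine culture 769-P was grown in RPMI 1640 and CAKI-1 in MEM, and the labels do not say whether the 2 libraries of a condition came from separate cultures. P-values therefore measure the spread between these libraries, which may be technical.

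Heat shock proteins are molecular chaperones that help other proteins fold, refold or be degraded. HSP70 proteins bind exposed stretches of unfolded protein with the help of J proteins, and exchange factors release them again, while HSP90 acts later on partly folded clients. In mitochondria, HSPA9 pulls imported chains into the matrix and the HSPD1-HSPE1 chaperonin folds them in a closed chamber. Heat shock factors such as HSF1 switch on many cytosolic chaperone genes by binding repeated GAA/TTC units in their promoters, and some of the same genes are also expressed at all times. Cancer cells commonly carry large amounts of these proteins.

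The promoter stretches that hold such units are shown because they match the pattern that heat shock factors are known to bind. The windows searched also differ in whether they carry this pattern. A match describes letters and is not evidence of binding. In windows of 250 bases before to 50 after each RefSeq start (GRCh38.p14), 3 alternating units (GAANNTTCNNGAA or TTCNNGAANNTTC, which are reverse complements of each other, so both strands are covered, and can overlap) were found in 172 of 35116 windows (0.490%). Among the 14 windows of the 10 genes, 3 held them, those of HSPA8, HSP90AA1 and HSPD1. Capitals mark the units, the stretches run 5′ to 3′ on the strand of the gene, and each start refers to the window that holds the motif. All bases of these 3-unit stretches also lie in GENCODE 29 exons of the 10 genes, so their place before a start holds for that RefSeq start only. No base of the 2-unit stretches shown further below lies in such an exon.
HSPA8, 230 bases before the start (chr11:123062348-123062372, minus strand): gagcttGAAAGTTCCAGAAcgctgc
HSPA8, 55 bases before the start (chr11:123062173-123062197, minus strand): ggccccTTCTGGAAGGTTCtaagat
HSP90AA1, 88 bases before the start of its second window (chr14:102087114-102087138, minus strand): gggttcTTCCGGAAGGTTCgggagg
HSPD1, 245 bases before the start of its second window (chr2:197500062-197500090, minus strand): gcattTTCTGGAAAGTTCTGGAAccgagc

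The shorter motif of 2 units (GAANNTTC or TTCNNGAA) was in 13.5% of all windows and in 8 of these 14, or in 16.2% of all genes and 7 of these 10. The additional genes were HSPA1A, HSPA1B, DNAJB1 and HSPA9, and the upstream matches are shown for the first 3, since that of HSPA9 reached to or past the start. The longer motif contains the shorter one.
HSPA1A, 106 bases before the start (chr6:31815431-31815450, plus strand): accctgGAATATTCccgacc
HSPA1B, 105 bases before the start (chr6:31827627-31827646, plus strand): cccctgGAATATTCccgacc
DNAJB1, 77 bases before the start of its second window (chr19:14518461-14518480, minus strand): ggggcgGAAGGTTCtggagg
DNAJB1, 47 bases before the same start (chr19:14518431-14518450, minus strand): gctctgGAAGCTTCcgccgg
Neither motif was found in the windows of HSPH1, BAG3 and HSPE1, which says only that these letters were not there. The HSPE1 window (197500129 to 197500428) does not reach the HSPD1 stretch shown above. That stretch lies within the annotated span of HSPE1 (197499994 to 197503457).

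A value is reads per gene divided by a size factor of its library, and each cell line was normalized on its own. In 769-P both libraries with BCAA were deeper (64256834 and 55829324 reads) than both without (39062721 and 40130258), so depth and treatment cannot be told apart there, whereas in CAKI-1 the depths of the conditions overlapped (30979773 to 47054568 reads). Replicates of each condition were further apart than counting error gives. Of the renal carcinoma markers, PAX8, VIM, KRT8 and KRT18 were at 764 or more in every library, PAX2 was listed in 769-P and not in CAKI-1, and CA9 was listed in neither line. Leukocyte and endothelial markers (PTPRC, CD68, PECAM1, VWF) were not above 10.3. Of the fibroblast markers, COL1A1 was between 98609 and 145196 in CAKI-1 against 145 to 215 in 769-P, and DCN was at 50.2 or less.

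In 769-P, 8 of the 9 tested genes were higher with BCAA and 1, HSPA9, was lower. Over all 22391 genes tested, 20.3% were called higher and 18.2% lower, and where the mean value reached 1000 these shares were 38.6% and 31.1%. In CAKI-1, 4 of the 8 tested genes were higher, 1 was lower and 3 were not called. There, 10.8% of 21347 genes were called higher and 9.05% lower, or 23.2% and 16.8% of those with a mean of at least 1000. The median log2 fold change of the tested heat shock genes was 0.88 in 769-P (all genes, -0.02) and 0.17 in CAKI-1 (all genes, -0.01). The heat shock genes were chosen with earlier results of these data known, so their counts and medians are a description. A call is an adjusted p under 0.05 from limma on log2(value + 1), and a log2 fold change is BCAA over no BCAA on that scale. With 2 libraries against 2, an exact permutation test of a single gene cannot go below p = 0.333 (two-sided), so the calls rest on the spread shared across genes. Groups that do not overlap reach no lower p than 0.333 in that test. The share of all genes whose groups do not overlap was not worked out, so non-overlap below is a description. In bulk RNA a change in the number of cells of a kind and a change in RNA per cell cannot be told apart.

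**Figure D1:**
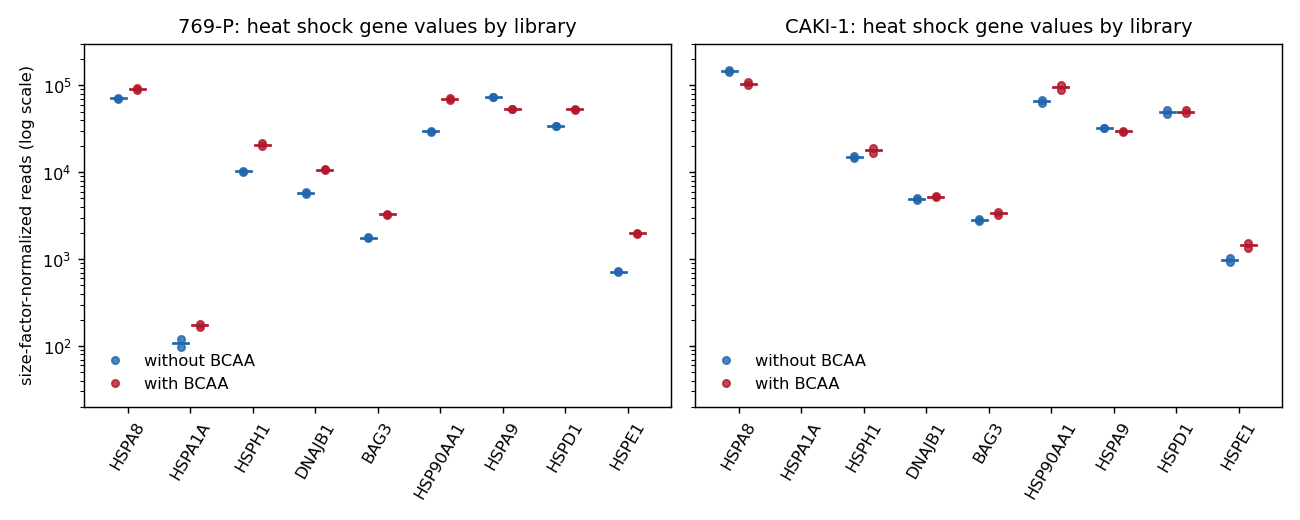
Size-factor-normalized reads (log axis) of each heat shock gene in each library of 769-P (left) and CAKI-1 (right), without BCAA in blue and with BCAA in red; points are libraries and short lines are means of 2. In 769-P the red points lie above the blue for every gene shown but HSPA9, whereas in CAKI-1 HSPA8 and HSPA9 lie below and HSPD1 overlaps; HSPA1A has no CAKI-1 values.

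HSPA8 encodes the constitutive cytosolic HSP70, HSC70, which works on newly made proteins and in clathrin uncoating and chaperone-mediated autophagy. It is on chromosome 11 (123057489 to 123063230, minus strand, GENCODE 29 on GRCh38), and its RNA moved in opposite directions in the 2 lines. In 769-P its values were 92702 and 88671 with BCAA against 70585 and 71941 without. In CAKI-1 they were 108522 and 101477 with BCAA against 152191 and 142681 without. The groups did not overlap in either line. The log2 fold change was 0.35 in 769-P (SE 0.04, adjusted p = 1.34e-05), a 1.27-fold rise, and -0.49 in CAKI-1 (SE 0.06, adjusted p = 3.53e-04), where the level was 1.40-fold lower with BCAA. In the interaction fit over 8 libraries these effects differed by 0.84 (SE 0.07, adjusted p = 3.26e-06).

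HSP90AA1, the inducible cytosolic HSP90 that matures kinases and steroid receptors (chromosome 14, 102080738 to 102139699, minus strand), rose in both lines. Its values in 769-P were 68551 and 70792 with BCAA against 29179.6 and 29829 without, a 2.36-fold difference (log2 1.24, SE 0.04, adjusted p = 3.91e-10). In CAKI-1 they were 101716 and 87717 against 67449 and 63448, a 1.44-fold difference (log2 0.53, SE 0.07, adjusted p = 5.13e-04). No library with BCAA overlapped one without. The rise was larger in 769-P, by 0.71 on the log2 scale (SE 0.09, adjusted p = 7.32e-05).

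HSPA8 and HSP90AA1 both carry 3 alternating units in a promoter window (the stretches above). Their ratio was lower with BCAA than without in every library of both lines. The HSPA8 value was 1.35 and 1.25 times the HSP90AA1 value in 769-P with BCAA and 2.42 and 2.41 times without. In CAKI-1 this ratio was 1.07 and 1.16 with BCAA and 2.26 and 2.25 without. The shift was not particular to this pair. HSPA8 over HSPH1, where neither motif was found, was 4.32 and 4.38 with BCAA and 6.92 and 6.89 without in 769-P. In CAKI-1 it was 5.63 and 6.07 with BCAA and 9.97 and 9.87 without. HSPA8 over DNAJB1 was also lower with BCAA in both lines. These ratios of values per gene are not corrected for length and are given as a description, with no test.

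HSPH1, DNAJB1 and BAG3 work with HSP70. HSPH1 (HSP110) is an exchange factor, DNAJB1 (HSP40) is a J protein that delivers clients, and BAG3 is an exchange factor that links HSP70 to selective autophagy. All rose in 769-P. HSPH1 (chromosome 13, 31134974 to 31162388, minus strand) was at 21465 and 20234 with BCAA and at 10203 and 10442 without (2.02-fold, log2 1.01, SE 0.04, adjusted p = 5.19e-09). DNAJB1 (chromosome 19, 14514770 to 14529770, minus strand) was at 10952 and 10562 against 5591 and 5889.5 (1.87-fold, log2 0.91, SE 0.05, adjusted p = 2.25e-08). BAG3 (chromosome 10, 119651370 to 119677819, plus strand) was at 3323 and 3217 against 1789.9 and 1751 (1.85-fold, log2 0.88, SE 0.06, adjusted p = 1.25e-07). No library with BCAA overlapped one without for any of them.

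In CAKI-1 the same partners moved little. HSPH1 was at 19282 and 16726 with BCAA and at 15267 and 14456 without (1.21-fold, log2 0.27, SE 0.07, adjusted p = 0.0173). BAG3 was at 3532 and 3217 against 2915 and 2778 (1.18-fold, log2 0.24, SE 0.07, adjusted p = 0.0261). DNAJB1 was at 5284 and 5219 against 5034 and 4783, and its difference of 0.10 (95% confidence interval -0.03 to 0.23, adjusted p = 0.286) did not pass. Libraries with BCAA lay above those without for all of them, but the gap between the conditions was smaller than the wider of the gaps between replicates. The effects were larger in 769-P by 0.74 for HSPH1 (adjusted p = 5.33e-05), 0.81 for DNAJB1 (adjusted p = 3.87e-06) and 0.64 for BAG3 (adjusted p = 1.43e-04).

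HSPA1A and HSPA1B, neighbouring genes for the stress-inducible HSP70 on the plus strand of chromosome 6 (31815464 to 31817946 and 31827735 to 31830255), were weakly measured. HSPA1A was at 181 and 168 with BCAA and at 119 and 97.8 without in 769-P, which corresponds to 239, 196, 96 and 80 reads (1.61-fold, log2 0.69, SE 0.19, adjusted p = 0.0112). It was not analysed here in CAKI-1, where 9 of the 10 genes have values. HSPA1B had 3 and 2 reads with BCAA and 0 and 0 without in 769-P, and 0 and 2 against 0 and 0 in CAKI-1, all at or under the floor of 3 reads, so no fold is given. The pair is nearly identical, as 71.3% of the 50-base words in HSPA1A transcripts also occur in HSPA1B, so the counting could split or drop their reads. Of 41 other protein-coding genes within 200000 bases of HSPA1A, 4 were listed in 769-P and 0 in CAKI-1. The part of this in the low values was not tested.

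The mitochondrial genes did not move as a unit. HSPA9 (mortalin, the matrix HSP70; chromosome 5, 138553756 to 138575724, minus strand) was at 54084 and 53313 with BCAA and at 73499 and 73299.9 without in 769-P, 1.37-fold lower (log2 -0.45, SE 0.04, adjusted p = 8.56e-07). In CAKI-1 it was at 29343 and 29726 against 32592 and 32589, a log2 difference of -0.14 (95% confidence interval -0.26 to -0.03) with an adjusted p of 0.0832. Libraries with BCAA lay below those without in both lines. The fall was deeper in 769-P by -0.31 (SE 0.06, adjusted p = 0.00195).

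HSPD1 (HSP60) and HSPE1 (HSP10) form the barrel and the lid of the mitochondrial chaperonin, and their genes lie head to head on chromosome 2 (197486581 to 197516737, minus strand, and 197499994 to 197503457, plus strand), with 281 exonic bases shared on opposite strands. HSPD1 in 769-P was at 53224 and 52589 with BCAA against 34537 and 34455 without (1.53-fold, log2 0.62, SE 0.04, adjusted p = 6.65e-08). HSPE1 was at 1950.1 and 2028 against 706 and 722 (2.78-fold, log2 1.48, SE 0.07, adjusted p = 9.62e-09), the largest rise among the 9 tested genes in this line. Both were far outside the replicate spread.

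In CAKI-1, HSPD1 was at 51762 and 47721 with BCAA against 51466 and 46719 without. The groups overlapped, and its log2 difference of 0.02 had a 95% confidence interval of -0.13 to 0.16 (adjusted p = 0.881). HSPE1 was at 1554 and 1343 against 927 and 1031 (1.48-fold, log2 0.56, SE 0.09, adjusted p = 0.00139) and did not overlap. The effects in 769-P exceeded those in CAKI-1 by 0.60 for HSPD1 (SE 0.08, adjusted p = 1.01e-04) and by 0.91 for HSPE1 (SE 0.12, adjusted p = 1.11e-04).

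Reads of HSPE1 and its copies are hard to assign. Pseudogenes named after HSPE1 held 42.6% to 47.2% of the summed value of gene and pseudogenes, against 10.3% to 10.8% for HSPD1, 7.35% to 7.87% for HSP90AA1, and 1.25% or less for HSPA8 and HSPA9. HSPE1 also shares 192 exonic bases with the read-through gene HSPE1-MOB4. With the pseudogene values added, the log2 fold change of HSPE1 was 1.53 in 769-P and 0.61 in CAKI-1. The strand setting of the counting is not given in the sources used here, so reads in the bases shared by HSPD1 and HSPE1 cannot be assigned by strand. HSPH1 and BAG3 shared no 50-base word with another gene.

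**Figure D2:**
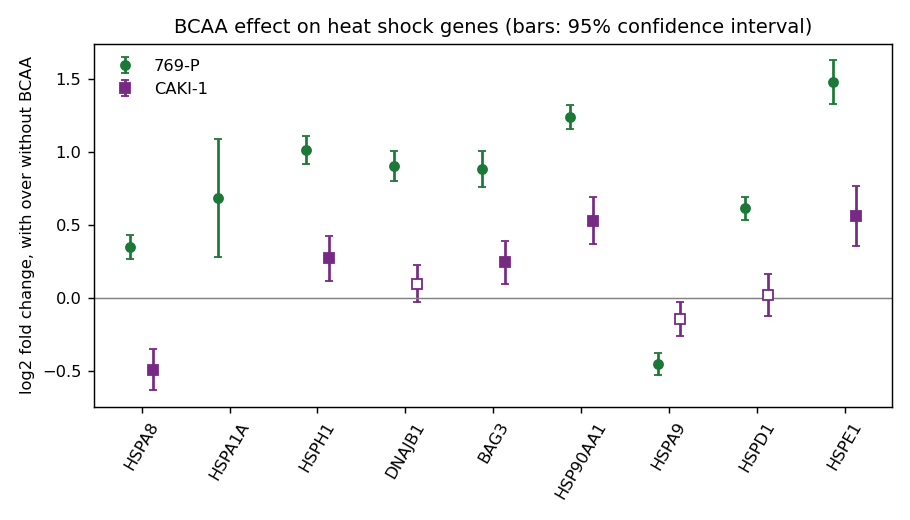
Log2 fold change with over without BCAA (vertical axis) of each heat shock gene in 769-P (green circles) and CAKI-1 (purple squares), with 95% confidence intervals; filled symbols passed an adjusted p of 0.05. HSPE1 (1.48) and HSP90AA1 (1.24) are highest in 769-P, and HSPA8 is on opposite sides of 0 in the 2 lines (0.35 and -0.49).

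Every one of the 8 genes tested in both lines had a BCAA effect that differed between them, 7 further up in 769-P and 1 (HSPA9) further down. Over the 19406 genes tested in both, 10.9% were called further up in 769-P and 10.1% further down. These shares cover genes of all levels, and the shares among genes with a mean of at least 1000 were not worked out for this difference. The median difference was 0.72 for the 8 genes and 0.01 for all genes. These 8 differences were called under each alternative tried except that HSPA9 did not reach 1.5-fold.

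Of the 9 calls in 769-P, 7 held without any one library of the line. The HSPA1A call was lost without any one library (adjusted p = 0.0617 to 0.199) and the HSPA8 call without either library lacking BCAA (adjusted p = 0.0581 and 0.0563). In CAKI-1 the fit within the line called 0 of all genes once a library was left out (limma; 2312 to 2965 were higher and 1923 to 2722 lower at an unadjusted p under 0.05), so it says nothing about single genes. The log2 fold changes then ranged from -0.54 to -0.44 for HSPA8, from 0.42 to 0.64 for HSP90AA1 and from 0.46 to 0.67 for HSPE1. With the spread taken from the other 7 libraries, an analysis added after seeing the data that holds no HSPA1A, only HSPH1 (without the second library lacking BCAA, adjusted p = 0.0574) and BAG3 (without that library, 0.0822, or the first with BCAA, 0.0865) lost their calls. Both also lost them under quantile normalization (adjusted p = 0.0803 and 0.115).

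Levels between genes were compared per kb of merged exons within a line. Merged exons join all annotated transcripts of a gene and can be longer than the RNA present. The order of genes with close levels, such as HSP90AA1 and HSPD1 in 769-P with BCAA, is therefore uncertain. HSPA8 was highest in every group, at 18702 ± 588 (SD, n = 2) per kb in 769-P with BCAA and 14696 ± 198 without, and at 21654 ± 1027 and 30405 ± 1387 in CAKI-1. In 769-P with BCAA, HSP90AA1 followed at 13276 ± 302, then HSPD1 at 12463 ± 106 and HSPA9 at 6506 ± 66.1. Without BCAA, HSPA9 came second at 8893 ± 17.1, ahead of HSPD1 at 8126 ± 13.5 and HSP90AA1 at 5622 ± 87.5. The rank of HSP90AA1 thus went from 2 to 4 in 769-P, while in CAKI-1 it held rank 2 in both conditions. Without BCAA in CAKI-1, HSP90AA1 (12471 ± 539) and HSPD1 (11565 ± 791) did not differ beyond their spread. Together the 10 genes took 0.629% and 0.632% of reads with BCAA and 0.466% and 0.465% without in 769-P. In CAKI-1 the shares of the 9 genes with values overlapped, at 0.815% and 0.749% with BCAA and 0.829% and 0.774% without.

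**Figure D3:**
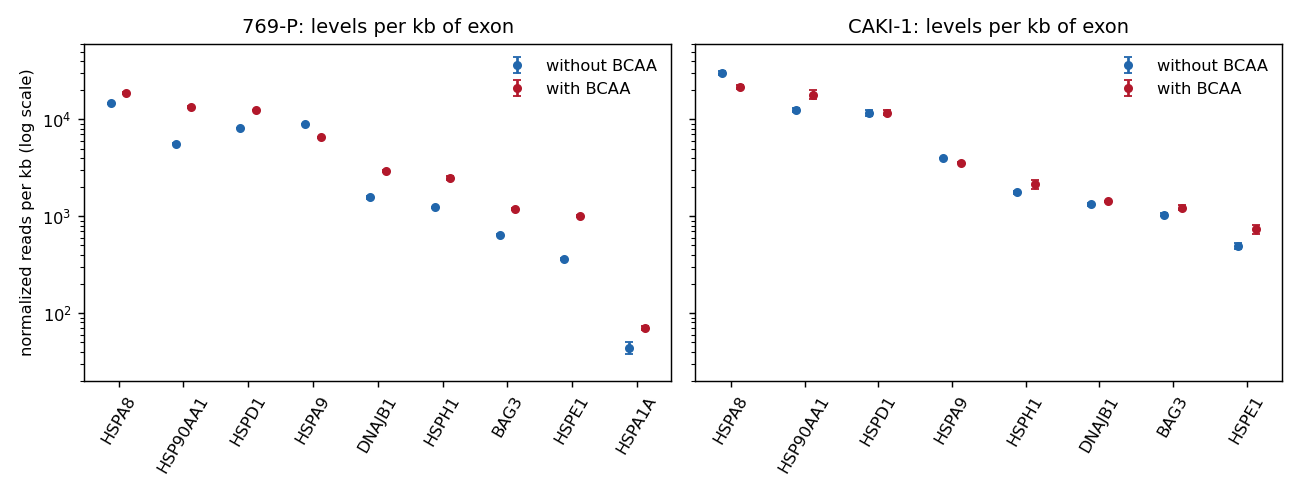
Normalized reads per kb of merged exon (log axis) of each heat shock gene, ordered by level with BCAA, as mean ± SD of 2 libraries in 769-P (left) and CAKI-1 (right); blue is without and red with BCAA. HSPA8 is highest in all 4 groups, and in 769-P the blue point of HSPA9 lies above that of HSP90AA1.

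Other genes of the chaperone network were read off the same fits, in 9 groups of 66 genes. With BCAA, 39 of 63 tested rose and 11 fell in 769-P. The counts for CAKI-1 were 20 and 4 of 62. The shares over all genes to read these and the group counts against are 20.3% higher and 18.2% lower in 769-P and 10.8% and 9.05% in CAKI-1, or 38.6%, 31.1%, 23.2% and 16.8% where the mean reached 1000. The median log2 fold change was 0.32 in 769-P and 0.12 in CAKI-1. The list was chosen with earlier results of these data known, so these counts and medians are a description.

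The CCT chaperonin, which folds actin and tubulin in the cytosol, had all 8 subunit genes higher in 769-P and 2 of 8 in CAKI-1. CCT2 rose by 0.73 and 0.22 on the log2 scale, while CCT8 rose by 0.67 in 769-P and was at -0.03 in CAKI-1 (adjusted p = 0.786). HSP90 and its co-chaperones had 10 of 11 higher in 769-P and 7 of 11 in CAKI-1, with none called lower in either. The HSP90 gene of this group, HSP90AB1, rose by 0.55 in 769-P. It was at -0.02 in CAKI-1 (adjusted p = 0.856), where its groups overlapped. Examples of the co-chaperones are FKBP5, an immunophilin of steroid receptor complexes (1.16 and 0.69), FKBP4, a related immunophilin (0.70 and 0.35), CACYBP (1.09 and 0.47) and CHORDC1 (0.69 and 0.42). These values passed in both lines, though CHORDC1 did not in CAKI-1 under quantile normalization (adjusted p = 0.0632). The FKBP4 call in 769-P was lost without either library with BCAA (log2 0.66 and 0.74).

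Among other cytosolic HSP70 and HSP110 genes, 4 of 5 tested were higher in each line. HSPA2 had log2 fold changes of 1.46 and 0.59, HSPA4, an HSP110-type exchange factor, 0.57 and 0.31, and HSPA14 0.48 and 0.66, in 769-P and CAKI-1. J proteins were mixed, with 3 higher and 2 lower of 8 in 769-P and 1 of each in CAKI-1. DNAJB5 rose by 1.67 in 769-P and was at 0.21 in CAKI-1 (adjusted p = 0.212), DNAJA1 was at 0.47 and 0.11 (adjusted p = 0.213 in CAKI-1), and DNAJB2 was lower in both (-0.51 and -0.34). The calls of HSPA2, DNAJB5 and DNAJB2 in 769-P were lost without either library with BCAA. The log2 fold changes were then 1.45 and 1.47, 1.735 and 1.61, and -0.49 and -0.53. Of the HSP70 partners, 3 of 7 were higher and 3 lower in 769-P, and 1 of each in CAKI-1. ST13, which binds HSP70, was called in opposite directions (0.22 and -0.30), but the call in 769-P was lost under quantile normalization (adjusted p = 0.0676) and without any one library of the line (0.0664 to 0.133). STUB1, a ubiquitin ligase that works with HSP70, was lower in 769-P (-0.39) and at -0.06 in CAKI-1 (adjusted p = 0.718). The STUB1 call in 769-P was also lost without any 1 library of the line (log2 -0.49 to -0.29).

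Small heat shock proteins, which hold unfolded chains without ATP, had 3 of 5 tested genes higher in 769-P and 0 of 4 in CAKI-1. HSPB1 was at 0.59 and 0.08 (adjusted p = 0.401 in CAKI-1), and CRYAB at 0.59 and -0.65 (adjusted p = 0.0669 in CAKI-1). The CRYAB call in 769-P was lost without the second library with BCAA or either library lacking it (log2 0.46 to 0.63). Prefoldin, which hands chains to CCT, had 3 of 5 higher and 1 lower in 769-P, and 2 higher and 1 lower of 5 in CAKI-1, with PFDN1 at 0.78 and 0.38.

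Mitochondrial chaperones and proteases had 3 of 10 higher and 3 lower in 769-P, close to the shares of well expressed genes (38.6% and 31.1%). LONP1, the matrix protease, fell by 0.85 on the log2 scale there, GRPEL2, a nucleotide exchange factor of HSPA9, fell by 0.79, and TIMM44, which tethers HSPA9 to the import channel, fell by 0.56. In CAKI-1 these were at -0.10, 0.21 and 0.11 and were not called (adjusted p = 0.291, 0.0844 and 0.37), and the group had 2 of 10 higher and 1 lower. CLPB, also of this group, was called higher in both lines (0.43 and 0.54). Its call was lost in CAKI-1 under quantile normalization (adjusted p = 0.0784) and in 769-P without any 1 library of that line (log2 0.36 to 0.50). GRPEL1, the other exchange factor of HSPA9, was at 0.16 and 0.34. Its call in 769-P (adjusted p = 0.041) was lost with no filter (0.0592), quantile normalization (0.0982), DESeq2 (0.0724) or any library of the line left out (0.104 to 0.214).

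Of the 3 heat shock factor genes, 1 (HSF2) was higher and 2 (HSF1 and HSF4) were lower in 769-P, and 0 were called in CAKI-1 by limma (0 also at an unadjusted p under 0.05, and 0 by edgeR and DESeq2). HSF1, the main stress-activated factor, was lower in 769-P (-0.28, SE 0.05, adjusted p = 6.72e-04) and at 0.04 in CAKI-1 (adjusted p = 0.681), a difference that passed (-0.32, adjusted p = 0.00568). HSF2 was higher in 769-P (0.32) and at 0.06 in CAKI-1 (adjusted p = 0.704), where the difference did not pass (adjusted p = 0.157). With any 1 library of 769-P left out, HSF2 was at 0.25 to 0.39 and HSF4 at -0.77 to -0.57, and neither kept its call. The HSF1 call in 769-P was lost without either library lacking BCAA (log2 -0.28 in each fit). HSBP1, a small protein that binds HSF1, was higher in both lines (0.45 and 0.38). RNA level does not measure the activity of these factors.

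**Figure D4:**
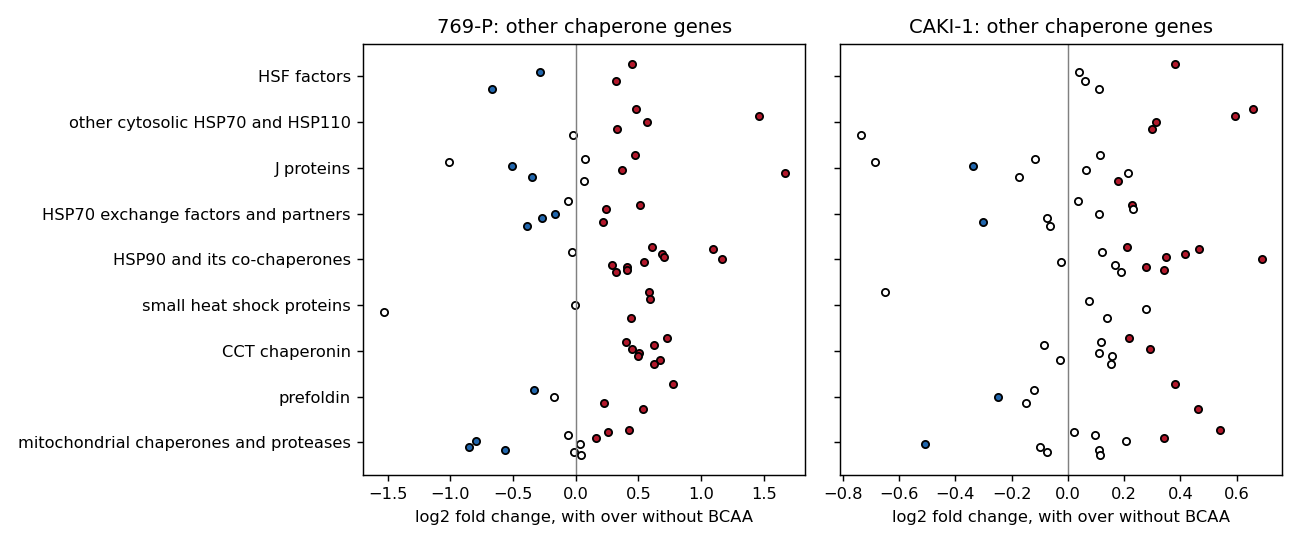
Log2 fold change with over without BCAA (horizontal axis) of the other chaperone genes by group, in 769-P (left) and CAKI-1 (right), on different scales; each point is a gene, red called higher, blue called lower, white not called. All 8 CCT genes are red in 769-P, and the lowest blue points there are LONP1 and GRPEL2 (-0.85 and -0.79).

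The genes whose pattern over the 8 libraries, centred within each line, was most like that of HSPD1 among 10881 genes were HSP90AB3P (Pearson r = 0.999), HSPD1P1 (0.998) and HSP90AB1 (0.996), of which the first 2 are pseudogenes whose reads can come from HSP90AB1 and HSPD1. For HSPA8 they were PSMD4 (0.985), ZBED6CL (0.984) and GNPTAB (0.976). Each line adds its own treatment difference to such an r, and the libraries of a line share their scaling, so these values are a description.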

How the data were processed

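RNA from 769-P and CAKI-1 cells was sequenced in 8 libraries, which were grouped by the line and treatment in their labels. The authors deposited 1 table per line of a signal per gene, which is reads divided by a size factor (0.777 to 1.32). The submitters' processing notes name hg38, Trim Galore, TopHat2 2.1.0, SAMtools 1.3.1, HTSeq 0.6.0, DESeq and DESeq2, and the annotation is not given in the sources used here. All values (100%, tolerance 0.01) were whole multiples of 1 read, so reads were recovered. The tables hold 25431 (769-P) and 24190 genes (CAKI-1), none with fewer than 2 reads in total.

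Symbols came from GENCODE 29 by Ensembl identifier, for 25032 and 23881 genes. Genes with a mean of at least 1 were fitted with limma 3.58.1 (R 4.3.3; lmFit, eBayes with trend) on log2(value + 1) within each line, with Benjamini-Hochberg adjustment over all genes tested. The difference between lines was the interaction term of 1 fit over the 8 libraries. Levels per kb used merged GENCODE exons. The fits were tested on simulated data. Of 50 genes changed 1.3-fold, the fit within a line recovered 76% in 769-P and 66% in CAKI-1. At 1.5-fold it recovered 82% and 74%, and at 2-fold 96% and 98%, so small changes can be missed. The named genes are all 10 heat shock genes, up to 3 called genes with the largest change per group of other chaperones and line, HSF1 and HSF2, and the 3 genes most correlated with HSPD1 and with HSPA8. The genes and lists were chosen with earlier results of these data known. The alternatives changed the pseudocount (0.5, 4), filter, scaling, threshold, replicate block, libraries and tool (on recovered reads, edgeR 4.0.16 or DESeq2 1.42.0). Floors and read counts cover counting error only.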

Additional observations from a re-analysis of the deposited data

Results flagged for a closer look

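The BCAA effect differed between the lines, by the interaction term of the limma fit, for each gene below. Values are the log2 effect in 769-P minus that in CAKI-1. For the heat shock genes they were 0.84 for HSPA8, 0.74 for HSPH1, 0.81 for DNAJB1, 0.64 for BAG3, 0.71 for HSP90AA1, -0.31 for HSPA9, 0.60 for HSPD1 and 0.91 for HSPE1. HSPA8 is the heat shock gene whose effect was called in opposite directions.

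Among cytosolic partners the values were 0.87 for HSPA2, 0.25 for HSPA4, 0.36 for DNAJA1, 1.46 for DNAJB5, 0.29 for BAG2, 0.52 for ST13, 0.35 for FKBP4, 0.47 for FKBP5, 0.62 for CACYBP, 0.52 for HSPB1, 0.30 for HSPB8, 1.24 for CRYAB, 0.47 for TCP1, 0.51 for CCT2, 0.70 for CCT8 and 0.40 for PFDN1. Of these partners, HSPA2 (adjusted p = 0.0472), HSPB8 (0.0275) and BAG2 (0.0212) were nearest to the threshold. The effect was further down in 769-P for HSF1 (-0.32), GRPEL2 (-1.001), LONP1 (-0.75) and TIMM44 (-0.68). The differences of genes other than the heat shock genes were not followed under the alternatives. ST13 was also called in opposite directions in the lines, although its call in 769-P was lost under quantile normalization (adjusted p = 0.0676).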

How the results depend on the processing

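Replicate numbers did not pair the libraries (correlation of deviations -0.0884 in 769-P and 0.0615 in CAKI-1). With a replicate block the heat shock genes kept counts of 8 higher and 1 lower in 769-P and 4 and 1 in CAKI-1, other chaperones in CAKI-1 were 18 and 3 (DNAJC7 and HSCB among those that lost their calls, adjusted p = 0.0872 and 0.0514), and 4692 and 4233 genes were called in 769-P and 2133 and 1803 in CAKI-1. Medians of all genes moved by less than 0.1 under other scalings.

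At 1.5-fold or more, 0 heat shock genes were lower in 769-P, other chaperones were 14 higher and 3 lower and all genes 1984 and 1911. In CAKI-1, limma then called 0 and 0 heat shock genes, 3 and 0 other chaperones and 725 and 481 genes, since the fold is under the limit. The interaction then called 0 heat shock genes further down and 917 and 927 genes. At an adjusted p under 0.01, CAKI-1 had 2 heat shock genes higher, 2 other chaperones lower and 1417 and 1012 genes, and the interaction 1224 and 1155. Quantile normalization gave 2 heat shock genes higher, 2 other chaperones lower and 1417 genes higher in CAKI-1, and no filter or median centering left 2 other chaperones lower. A spread from all 8 libraries, or edgeR with TMM, called 2 heat shock genes lower in CAKI-1, HSPA9 being added. The causes were not tested.

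Leaving out 1 library in turn, 769-P had 6 to 7 heat shock genes higher and 1 lower each time, 25 to 30 and 4 to 6 other chaperones, and 1493 to 2211 and 1354 to 1510 genes. In CAKI-1 limma within the line called 0 genes in either direction without any one library, although 2312 to 2965 genes were higher and 1923 to 2722 lower at an unadjusted p under 0.05, among them 2 to 4 heat shock genes higher and 1 to 2 lower and 16 to 25 other chaperones higher and 3 to 6 lower; edgeR and DESeq2 were not run there. Over both kinds of left-out fit, CAKI-1 ranges were 0 to 4 heat shock genes higher, and 0 to 2 lower. The interaction kept 7 and 1 heat shock genes, with 1533 to 2147 and 1385 to 1972 genes.

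Log2 changes near 0 turned sign: HSPD1 in CAKI-1 (-0.0503 to 0.0893 with 1 library left out; -0.0392 without the first library with BCAA), HSCB in 769-P (-0.0221 to 0.0826; -0.0191 without the second with BCAA), HSF2 (-0.0112 to 0.1299), HSF4 (-0.173 to 0.3979), STUB1 (-0.2084 to 0.0844) and CCT8 (-0.0536 to 0.0003) in CAKI-1, and there HSF1 under quantile normalization (-0.0210) and CCT8 under median centering (0.0145) and quantile normalization (0.0002). HSPA1B was at or under the floor of 3 reads in every library, and HSPA1A in 769-P rests on 80 to 239 reads.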
